A study of Mus musculus with 8 samples.

Results

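A set of 9 genes known from the olfactory bulb or from regions below the cortex, out of the 24420 genes with a row in every count table, were followed across 8 RNA-seq libraries labelled mouse prefrontal cortex: Eomes, Cdhr1, Doc2g, Trh, Th, Calb2, Slc17a6, Ramp3 and Gng4. They were chosen by symbol, with earlier results of the same libraries known, because they were high in saline-treated libraries, so their levels and folds between groups are a description. Counts of these genes past the whole-table threshold are printed beside the share of all genes, and nothing is read from them. The study measured polyadenylated RNA in 3 groups of male mice aged 5 to 6 weeks. The romidepsin group (2 libraries) was heterozygous for a Shank3 allele lacking exon 21, which encodes the C-terminal part of a postsynaptic scaffold, and received romidepsin, a histone deacetylase inhibitor, at 0.25 mg/kg by intraperitoneal injection once daily for 3 days, with tissue taken 1 day after the last dose. The saline group (3 libraries) carried the same heterozygous deletion and received saline. The wild-type group (3 libraries) came from age-matched male littermates with no treatment named. The labels do not say whether each library is a separate animal, so the spread between libraries may be technical.

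The olfactory bulb lies in front of the prefrontal cortex in the mouse. Its output neurons, the mitral and tufted cells, use glutamate, and its local neurons in the granule and glomerular layers use GABA, with or without dopamine. Eomes (Tbr2) is a T-box transcription factor of adult mitral and tufted cells and of dividing progenitors of the developing cortex. Cdhr1 is a cadherin-related protein of photoreceptors and of the bulb, and Doc2g belongs to the Doc2 family of C2-domain proteins. Trh encodes the precursor of thyrotropin-releasing hormone, Th the rate-limiting enzyme of dopamine synthesis, and Calb2 calretinin, the calcium-binding protein of many bulb interneurons and of a class of cortical interneurons. Slc17a6 is the vesicular glutamate transporter VGLUT2, prominent in the thalamus, Ramp3 a single-pass partner of calcitonin-family receptors, and Gng4 a G-protein gamma subunit. In whole tissue, fewer cells of a type and less RNA per cell cannot be told apart.

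The RefSeq promoter table for GRCm38.p6 held 8 of the 9 genes; Calb2 had no entry. Promoters of 5 genes are printed, those that differed widely between libraries of the same group, as the 250 bases before the annotated start, on the gene's strand. Capitals mark TATAA on the gene's strand in Eomes, Cdhr1 and Trh, AGGTGT on the opposite strand in Doc2g, read here as ACACCT, and TGACGTCA in Th.
Eomes: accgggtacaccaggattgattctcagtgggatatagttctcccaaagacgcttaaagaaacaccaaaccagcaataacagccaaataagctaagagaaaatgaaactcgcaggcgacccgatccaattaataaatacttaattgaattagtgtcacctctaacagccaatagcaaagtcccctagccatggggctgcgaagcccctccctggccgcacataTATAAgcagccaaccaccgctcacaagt
Cdhr1: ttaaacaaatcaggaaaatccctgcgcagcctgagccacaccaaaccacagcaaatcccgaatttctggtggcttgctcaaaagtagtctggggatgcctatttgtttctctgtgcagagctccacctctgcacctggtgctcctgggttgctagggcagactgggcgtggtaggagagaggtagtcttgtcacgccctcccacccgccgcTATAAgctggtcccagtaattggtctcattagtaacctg
Trh: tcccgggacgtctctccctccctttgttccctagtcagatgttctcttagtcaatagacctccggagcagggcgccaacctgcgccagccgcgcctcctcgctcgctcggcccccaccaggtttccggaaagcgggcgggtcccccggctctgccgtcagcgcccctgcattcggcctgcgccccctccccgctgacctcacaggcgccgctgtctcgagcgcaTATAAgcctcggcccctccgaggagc
Doc2g: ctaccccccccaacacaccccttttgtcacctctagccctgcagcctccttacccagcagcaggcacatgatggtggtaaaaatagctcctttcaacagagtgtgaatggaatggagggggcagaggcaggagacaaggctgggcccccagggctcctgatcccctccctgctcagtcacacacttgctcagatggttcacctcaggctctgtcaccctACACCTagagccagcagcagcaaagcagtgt
Th: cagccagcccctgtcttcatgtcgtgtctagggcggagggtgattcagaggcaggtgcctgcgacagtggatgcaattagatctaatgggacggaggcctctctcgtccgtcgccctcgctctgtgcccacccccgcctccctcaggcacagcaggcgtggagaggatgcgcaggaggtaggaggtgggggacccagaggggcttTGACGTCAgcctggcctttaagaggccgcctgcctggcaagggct
These stretches lie at chr9:118477939-118478188 on the plus strand for Eomes, chr14:37098348-37098597 on the minus strand for Cdhr1, chr6:92244651-92244900 on the minus strand for Trh, chr19:4003135-4003384 on the plus strand for Doc2g and chr7:142899996-142900245 on the minus strand for Th. The motifs were chosen after the sequences were seen, and both strands of windows from 250 bases before to 50 after the start were searched. TATAA begins 28 bases before the start in Eomes, 39 in Cdhr1 and 26 in Trh. On the gene's strand between 40 and 20 bases before the start, it is found in 3.52% of the 32817 promoters of the table. TGACGTCA, the cyclic AMP response element, begins 45 bases before the Th start and is found in 1.79% of those promoters. AGGTGT, the core of a T-box factor's site, is found in 13.7% of them, and lies 31 bases before the Doc2g start. It was also found, on the gene's strand, in genes whose promoters are not printed. There it lies 52 bases before a Slc17a6 start, and 37 bases after the earlier Gng4 start and 211 before the later. A match describes letters in these windows and no more.

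Counts on genes ranged from 7783538 in saline 3 to 15156318 in saline 1, with 9640524 in saline 2, the next lowest. Saline 1 came with 24420 gene rows and 0 summary rows of unassigned reads, against 24421 and 5 for every other library. Its share of reads on genes is therefore not known. Levels are CPM, read counts scaled to a common library total with TMM (trimmed mean of M values, a correction for library composition). A filter on low counts left 14809 genes for the fit, all 9 members among them; Eomes exceeded 1 CPM only in saline 2 and saline 3. No 2 libraries agreed within sampling noise. The 11 cortical neuron markers summed to 2407 and 2441 CPM in the romidepsin libraries, 2253 to 2401 CPM in the saline libraries and 2023 to 2595 CPM in the wild-type libraries. The labels give the cell type as neurons, yet 4 oligodendrocyte markers summed to 2446 to 4532 CPM and 4 astrocyte markers to 963 to 1430 CPM over the 8 libraries.

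All 9 genes had saline 2 and saline 3 as their 2 highest libraries, as did 5.46% of all tested genes. All 9 had saline 1 as the lowest of the saline libraries. They parted at wild type 3, which was the highest wild-type library for 7 genes and the lowest for Slc17a6 and Ramp3. For Eomes, Cdhr1, Doc2g, Th and Calb2, the 3 highest libraries were saline 2, saline 3 and wild type 3, a set found in 1.65% of tested genes. Since the genes were chosen on saline libraries, these shares are read as a description.

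The mitral and tufted cell gene Eomes (GRCm38, chr9:118478212-118486132) had 0.0984 and 0.103 CPM in the romidepsin libraries, 0.131, 3.77 and 4.87 CPM in the saline libraries, and 0.337, 0.376 and 0.94 CPM in the wild-type libraries. These are 1 and 1 reads with romidepsin, 2, 36 and 38 reads with saline, and 4, 5 and 12 reads in wild type. Saline 2 and saline 3 stand far above every other library, while saline 1 lies with the romidepsin libraries. Saline 1 was below each wild-type library, but its 95% counting interval was 0.0159 to 0.473 CPM. It overlaps those of wild type 1 (0.0917 to 0.862 CPM) and wild type 2 (0.122 to 0.878 CPM), so their order is not settled at these reads. The summed reads gave a ratio of romidepsin over saline of 0.0432, with a 95% counting interval of 0.00514 to 0.161, from 2 against 76 reads. That interval covers counting error only.

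Cdhr1 (chr14:37077857-37098347) had 3.25 and 3.60 CPM with romidepsin, 5.96, 16.4 and 15.4 CPM with saline, and 4.88, 2.71 and 12.6 CPM in wild type. Wild type 3 lies near saline 2 and saline 3, and saline 1 lies near the other wild-type libraries. The romidepsin libraries lay below all saline libraries but within the wild-type range. Doc2g (chr19:4003313-4007005) had 2.07 and 3.29 CPM with romidepsin, 1.57, 9.0 and 11.3 CPM with saline, and 3.45, 2.63 and 5.87 CPM in wild type. Saline 1 was the lowest of the 8 libraries, so saline overlapped both other groups.

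Among the genes of bulb interneurons and of peptide signalling, Trh (chr6:92242061-92244650) had 1.67 and 1.65 CPM with romidepsin, 1.96, 5.03 and 4.23 CPM with saline, and 1.01, 0.903 and 1.72 CPM in wild type. Every saline library was above every other library, saline 1 by a small margin. Th (chr7:142892752-142931128) had 1.87 and 2.57 CPM with romidepsin, 2.29, 5.44 and 5.51 CPM with saline, and 1.77, 1.66 and 4.46 CPM in wild type. Wild type 3 lay with saline 2 and saline 3 and the remaining 5 libraries lay together. Calb2 (chr8:110137502-110168210) had 15 and 14.0 CPM with romidepsin, 16.9, 27.4 and 23.7 CPM with saline, and 12.2, 9.93 and 20 CPM in wild type. Wild type 3 exceeded saline 1, so saline and wild type overlapped; romidepsin lay below all saline libraries.

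The thalamic and receptor-signalling genes varied far less. Slc17a6 (chr7:51622006-51671119) had 8.96 and 10.7 CPM with romidepsin, 10.4, 14.0 and 14.5 CPM with saline, and 9.01, 10.5 and 8.85 CPM in wild type. Saline 1 lay with the romidepsin and wild-type libraries, and wild type 3 was the lowest. Ramp3 (chr11:6658521-6677475) had 24.9 and 24.2 CPM with romidepsin, 26.7, 30.6 and 30.6 CPM with saline, and 21.8, 23.8 and 17.3 CPM in wild type. The 3 groups did not overlap, with saline highest and wild type lowest. Gng4 (chr13:13784059-13827896) had 57.7 and 54.0 CPM with romidepsin, 57.9, 71.4 and 61.0 CPM with saline, and 48.1, 43.8 and 51.5 CPM in wild type. The groups were again apart and in the same order, though romidepsin 1 and saline 1 differed by little. Ramp3 overlaps Gm11978 on the opposite strand, which had 49 reads over the 8 libraries; whether the counting used strand is not given in the sources used here.

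**Figure D1:**
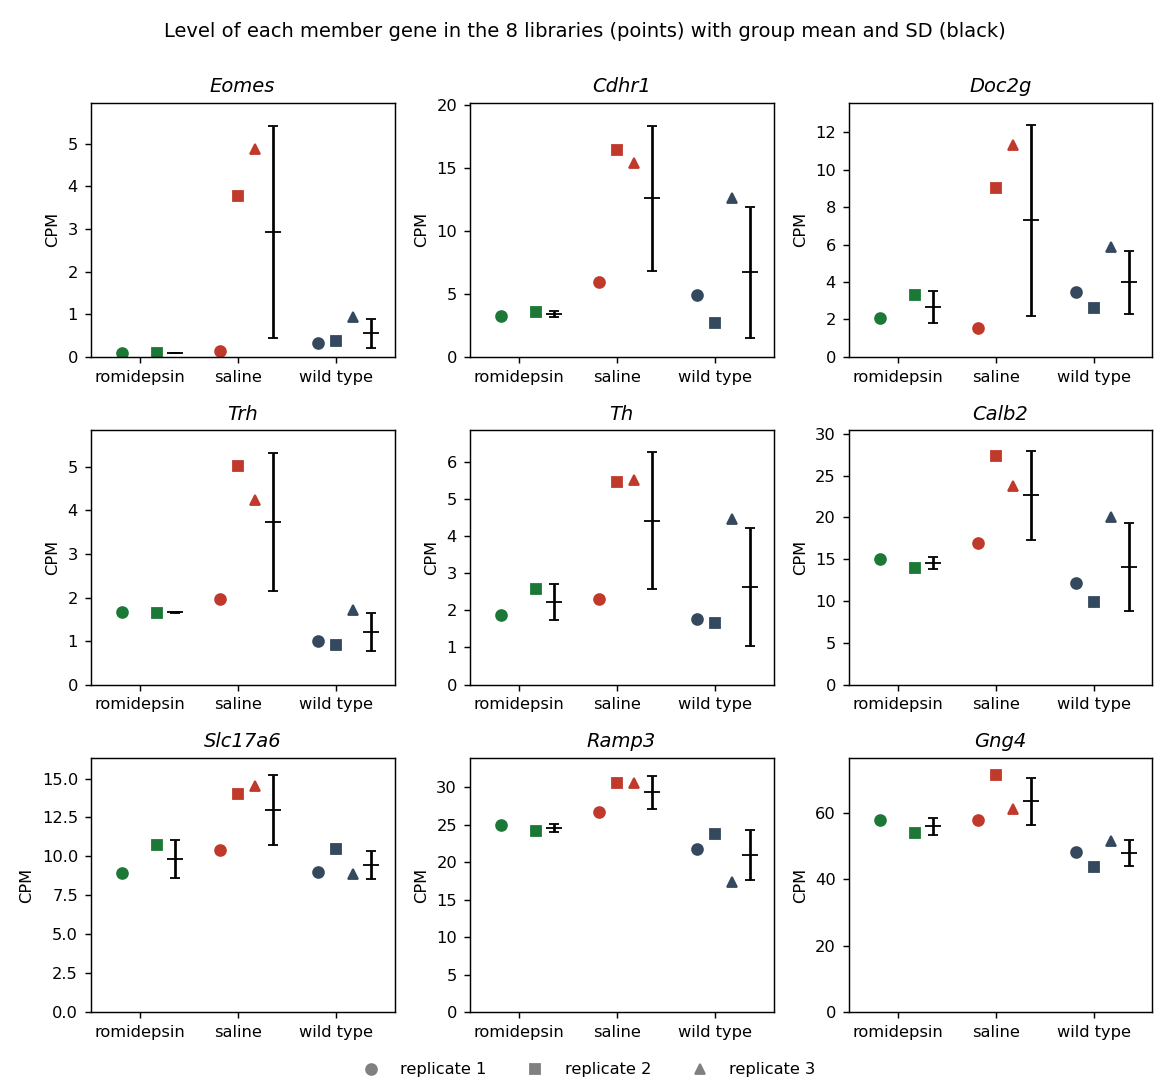
CPM of each of the 9 genes in each library, one point per library (shape gives the replicate number), with the group mean and SD in black; romidepsin has 2 libraries, saline and wild type 3 each. Saline 2 and saline 3 are highest in every panel, and wild type 3 is near them for Cdhr1, Th and Calb2 and lowest for Slc17a6 and Ramp3.

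Divided by exon length, the wild-type levels ran from Ramp3, at 15.2 ± 2.40 CPM per kb, through Gng4 at 14.3 ± 1.16 and Calb2 at 8.05 ± 3.02, to Slc17a6 at 1.75 ± 0.173 (SD, n = 3). Below them came Cdhr1 at 1.55 ± 1.20, Doc2g at 1.31 ± 0.555, Th at 1.11 ± 0.673, Trh at 0.876 ± 0.322 and Eomes at 0.133 ± 0.0812 CPM per kb (SD, n = 3). Ramp3 and Gng4 did not differ beyond their spread, nor did neighbours among Slc17a6, Cdhr1, Doc2g, Th and Trh. Calb2 stood apart from Gng4 above it and Slc17a6 below it, and Eomes from Trh above it.

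The difference between the genes lay in the spread within groups. The biological coefficient of variation, the spread between libraries of a group beyond counting error, was 68.4% for Eomes, 51.6% for Doc2g, 48.1% for Cdhr1, 32.3% for Th, 26.3% for Trh and 19.7% for Calb2. It was 12% for Slc17a6, 9.48% for Ramp3 and 8.18% for Gng4, against a median of 9.44% over all tested genes. Eomes, Doc2g and Cdhr1 each exceeded 99.9% of tested genes, whereas Gng4 exceeded 34.8%. These shares are a description, because the genes were chosen for high levels in saline libraries, which enter the spread. At its own mean level the fitted trend was 21.8% for Eomes and 13.7% for Cdhr1, below what both genes showed, and 12.3% for Slc17a6, near its value.

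**Figure D2:**
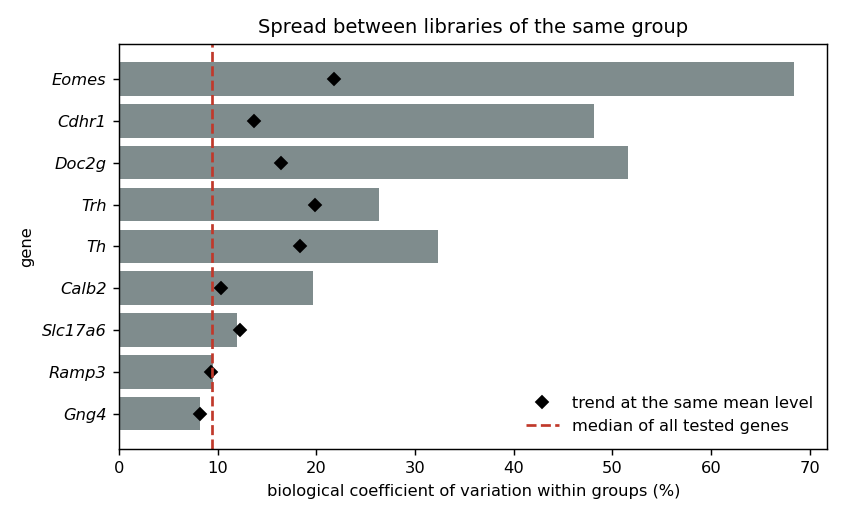
Biological coefficient of variation within groups (percent, bars) for each gene, with the trend at the same mean level (diamonds) and the median of all tested genes (dashed line, 9.44%). Eomes, Cdhr1, Doc2g, Trh, Th and Calb2 lie above the trend; Slc17a6, Ramp3 and Gng4 lie on it.

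Across the 8 libraries, Eomes, Cdhr1, Doc2g, Th, Calb2 and Trh, set apart after their values were seen, moved together. Their 15 pairs had Pearson r of 0.71 to 0.94 on log2 CPM, with a median of 0.87, and Spearman rho of 0.45 to 0.98. Taken as deviations from group means, r was 0.71 to 0.98, so the shared movement was present between libraries of the same group. Without the 2 libraries farthest from the median of a pair's first gene, chosen pair by pair, r ran from -0.27 to 0.92. Its median was 0.66, so the shared movement leans on the libraries left out for some pairs. The 3 pairs among Slc17a6, Ramp3 and Gng4 had r of 0.64 to 0.83, but -0.24 to 0.61 as deviations from group means. Between both sets, 18 pairs had r of 0.23 to 0.93 and deviations of -0.49 to 0.86, the highest for Calb2 with Gng4. As deviations, Gng4 had r of 0.59 to 0.86 with the genes of the first set. Its r was 0.07 with Slc17a6 and -0.24 with Ramp3, so by that measure Gng4 moved with the first set. With 2 libraries left out in the same way, r between both sets ran from -0.94 to 0.92. Its median was then -0.32, with 7 of the 18 pairs above 0, so the positive r between the sets leans on the libraries left out. For the 3 pairs among Slc17a6, Ramp3 and Gng4 it was -0.09 to 0.88. Points within a library share its depth and its scaling.

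**Figure D3:**
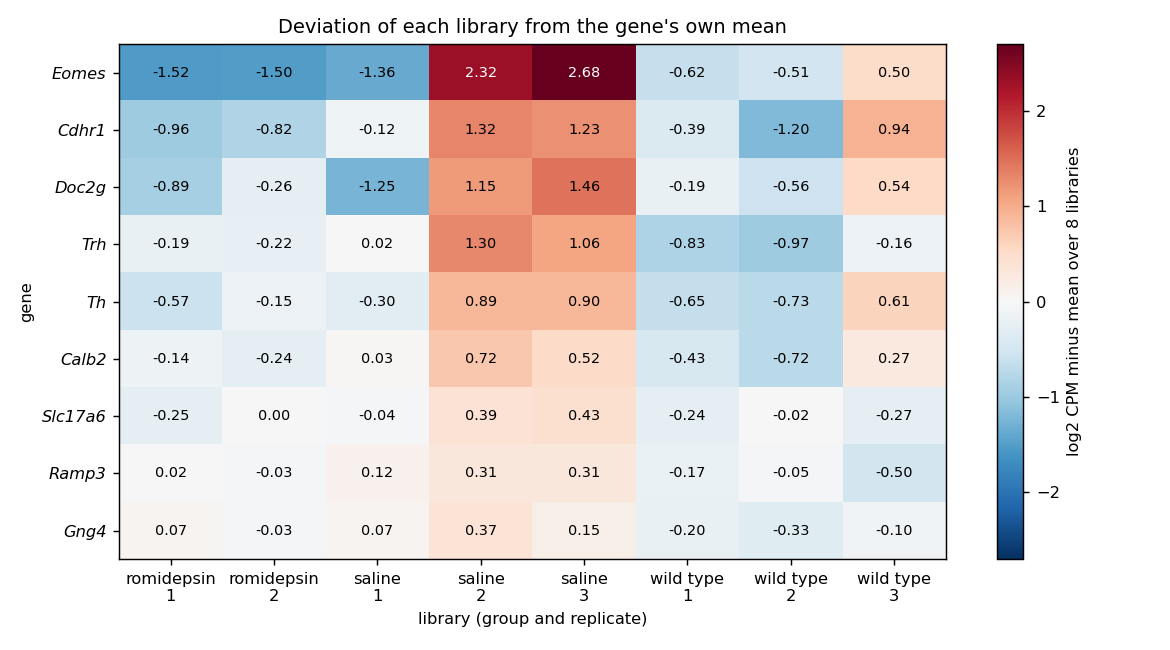
Log2 CPM of each gene (rows) in each library (columns) minus the gene's mean over the 8 libraries, printed in each cell; red is above and blue below the mean. Saline 2 and saline 3 are above the mean for all 9 genes, saline 1 is at -1.36 for Eomes and -1.25 for Doc2g, and wild type 3 is at 0.94 for Cdhr1 and -0.50 for Ramp3.

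Romidepsin against saline compares drug with vehicle in mice of one genotype. All 9 genes were lower with romidepsin, from a log2 fold change of -4.59 for Eomes (95% interval -7.94 to -1.24) to -0.18 for Gng4 (-0.41 to 0.05). Cdhr1 averaged 3.42 ± 0.248 CPM with romidepsin (SD, n = 2) and 12.6 ± 5.77 CPM with saline (SD, n = 3), a log2 fold change of -1.84 ± 0.75 (SE). Trh averaged 1.66 ± 0.02 and 3.74 ± 1.59 CPM in the same groups, a log2 fold change of -1.12 ± 0.44. Doc2g, Th, Calb2, Slc17a6 and Ramp3 had log2 fold changes of -1.37, -0.94, -0.63, -0.38 and -0.25. By edgeR's quasi-likelihood test with Benjamini-Hochberg adjustment over all genes, 0 of 9 passed, as did 0% of all tested genes, of which 483 of 14809 had an unadjusted p under 0.05; DESeq2 and limma-voom also passed 0 of 9. Since the genes were chosen for high saline levels, and Eomes did not pass the filter without any saline library, these counts support nothing. Without saline 1, the low saline library, the log2 fold change of Eomes was -5.26. Groups did not overlap for 6 of 9 (Eomes, Trh, Calb2, Cdhr1, Ramp3 and Gng4), against 10.2% of tested genes. The median over the 9 genes was -0.94, against -0.003 over all tested genes.

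Saline-treated and wild-type mice differed in genotype and, since no treatment is named for the wild type, in injection; the 2 cannot be told apart. All 9 genes were higher with saline, from a log2 fold change of 2.26 for Eomes (95% interval 0.26 to 4.26) to 0.41 for Gng4 (0.20 to 0.61). Trh averaged 3.74 ± 1.59 CPM with saline and 1.21 ± 0.446 CPM in wild type (SD, n = 3 each), a log2 fold change of 1.57 ± 0.39 (SE). Ramp3 averaged 29.3 ± 2.25 CPM with saline and 21.0 ± 3.32 CPM in wild type, a log2 fold change of 0.48 ± 0.12. Cdhr1, Doc2g and Th had log2 fold changes of 0.86, 0.79 and 0.69 with intervals that included 0, and Calb2 and Slc17a6 had 0.67 and 0.44. By the same edgeR test 0 of 9 passed, against 0.00675% of tested genes (1 gene), and 1242 of 14809 genes had an unadjusted p under 0.05. Limma-voom passed 0 of 9, and DESeq2 passed 0 of the 4 genes (Calb2, Slc17a6, Ramp3 and Gng4) to which it gave an adjusted p. These counts too rest on the choice of genes and support nothing. Without wild type 3 the log2 fold change of Calb2 was 1.01, and without saline 1 that of Eomes was 2.93. Groups did not overlap for 3 of 9 (Trh, Ramp3 and Gng4), against 6.26% of tested genes. The median was 0.69, against 0.005 over all tested genes.

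The size of the differences moved with single libraries and with the method. Without wild type 3 the log2 fold change of saline over wild type was 1.69 for Cdhr1 and 1.3 for Th, and without wild type 2 it was 0.48 and 0.44. For Doc2g it was 1.34 without saline 1 and 0.31 without saline 3. Without saline 3 it was 1.63 for Eomes, and without saline 2 it was 1.26 for Trh. By limma-voom it was 0.92 for Eomes and 0.20 for Doc2g, below every value with a library left out, and romidepsin over saline was -2.75 for Eomes and -0.72 for Doc2g.

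Romidepsin and wild-type mice differed in genotype and drug together. Eomes was lower with romidepsin (log2 fold change -2.34, 95% interval -6.53 to 1.85, from 2 against 21 reads), as were Cdhr1 (-0.97), Doc2g (-0.58) and Th (-0.25). Trh, Ramp3, Gng4, Slc17a6 and Calb2 had log2 fold changes of 0.45, 0.23, 0.22, 0.05 and 0.04. Every one of the 9 intervals included 0. By edgeR 0 of 9 passed, against 0.00675% of tested genes (1 gene); 0 of 9 and 480 of 14809 genes had an unadjusted p under 0.05, and DESeq2 and limma-voom passed 0 of 9. Fitted with these 2 groups alone, Eomes did not pass the filter and 8 genes were tested. Signs were not stable for 3 genes: without wild type 3, Th had 0.36; without wild type 2, Calb2 had -0.16; and without romidepsin 2, Slc17a6 had -0.08. Romidepsin against saline and saline against wild type share the saline libraries, so their opposite directions are not separate observations.

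**Figure D4:**
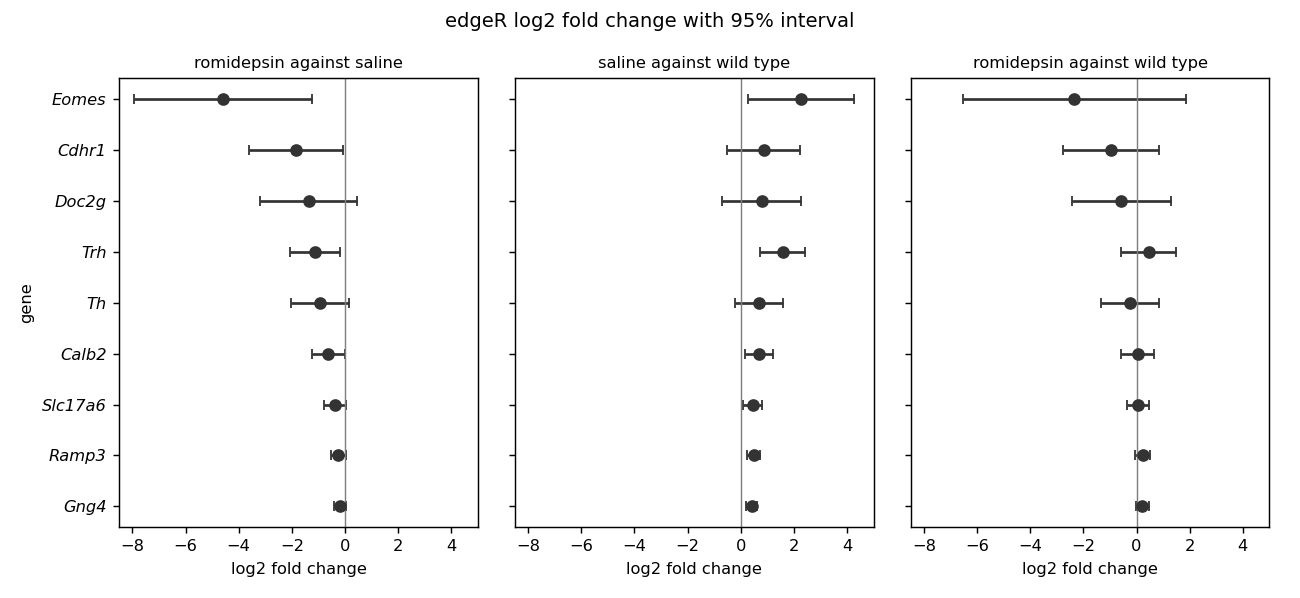
Log2 fold change (points) with 95% interval (bars) of each gene in romidepsin against saline, saline against wild type and romidepsin against wild type, from edgeR's fit to all 8 libraries. Intervals are widest for Eomes (-7.94 to -1.24 in romidepsin against saline) and narrow for Gng4.

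Other markers of the same regions were read from lists of 8 regions, 86 genes without the members, of which 51 were tested. None of the 51 passed in any comparison by edgeR; 4, 6 and 3 had an unadjusted p under 0.05 in romidepsin against saline, saline against wild type and romidepsin against wild type. In saline against wild type 29 were higher and 22 lower (median log2 fold change 0.03), and in romidepsin against saline 25 were higher and 26 lower (median -0.01). Saline 2 and saline 3 were the 2 highest libraries for 1 of the 51, Sp8. Saline 2, saline 3 and wild type 3 were the 3 highest for 6 of the 51: Shisa3, Sp8, Scgn, Nr4a2, Slc5a7 and Ngfr.

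Among bulb genes, Shisa3, a transmembrane adaptor protein, was the 1 of 5 mitral and tufted cell markers tested. It had 0.394 and 0.411 CPM with romidepsin, 0.786, 2.62 and 1.41 CPM with saline, and 0.253, 0.151 and 1.64 CPM in wild type. The high libraries are those of Cdhr1. Tbx21, the T-box factor of mitral cells, had 1 read in each romidepsin library. It had 0, 6 and 1 reads in the saline libraries, and 1, 0 and 5 reads in the wild-type libraries. The other markers of this list did not share these high libraries. Ebf3 was lowest in saline 2 and saline 3, at 0.314 and 0.513 CPM, and highest in wild type 3, at 0.94 CPM. Lhx1 had 3 reads, all in saline 1, and Lhx5 had 0 reads in saline 2 and 3 in saline 3. The 5 markers summed to 1.67 and 1.13 CPM with romidepsin, 1.77, 3.56 and 2.43 CPM with saline, and 1.09, 0.75 and 3.05 CPM in wild type.

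Sp8, a zinc-finger factor of bulb interneurons, had 1.38 and 1.65 CPM with romidepsin, 1.96, 3.35 and 3.20 CPM with saline, and 1.09, 1.13 and 2.90 CPM in wild type. Scgn, the calcium-binding protein secretagogin, had 0 and 0.206 CPM with romidepsin, 0.196, 1.36 and 0.769 CPM with saline, and 0.337, 0.452 and 1.80 CPM in wild type. Both were highest in saline 2, saline 3 and wild type 3. Yet of 13 interneuron markers tested 9 were higher and 4 lower in saline against wild type (median log2 fold change 0.03). Synpr, a synaptic vesicle protein, had a log2 fold change of 0.32 ± 0.13, and Sp9, a relative of Sp8, -0.63 ± 0.28 (SE). All 14 interneuron genes of the list, tested or not, summed to 434 and 416 CPM with romidepsin and 445, 512 and 407 CPM with saline. In wild type the sum was 413, 383 and 419 CPM, so it was high in saline 2 only. Meis2, Synpr and Etv1 gave 173, 151 and 99.7 CPM of the sum in saline 2, so Sp8 and Scgn hardly enter it. Of the olfactory nerve list 3 of 6 were tested; Omp, the marker of olfactory sensory neurons, was at 0.0984 and 0.514 CPM with romidepsin, 0.982, 0.314 and 1.03 CPM with saline, and 0.253, 0.226 and 0.705 CPM in wild type, and Frzb, a Wnt inhibitor, had a log2 fold change of -0.32 ± 0.13 in saline against wild type.

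The thalamic list did not follow Slc17a6. Of 11 tested markers 8 were higher and 3 lower in romidepsin against saline, and 4 higher and 7 lower in saline against wild type (median log2 fold changes 0.15 and -0.14). All 14 genes of the list, tested or not, summed to 420 and 439 CPM with romidepsin and 406, 382 and 416 CPM with saline. In wild type the sum was 430, 453 and 418 CPM, and saline 2 was the lowest library. Adarb1 alone ranged from 205 CPM in saline 2 to 250 CPM in romidepsin 2, so the sum says little of the other genes. Ptpn3, a tyrosine phosphatase, had -0.22 ± 0.11 and Adarb1, an RNA-editing enzyme, -0.14 ± 0.07 in saline against wild type (SE). The 10 striatal markers tested had a median of -0.02 there and 0.20 in romidepsin against saline; Rasd2, a striatal GTPase, had -0.29 ± 0.09 and Tac1, the substance P precursor, -0.38 ± 0.13 in saline against wild type.

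Of 5 other markers of dopamine neurons tested beside Th, 1 was higher and 4 lower in saline against wild type, with Aldh1a1, a retinaldehyde dehydrogenase, at -0.60 ± 0.13 and Gch1, which makes the cofactor of Th, at -0.56 ± 0.38 (SE, log2 fold change). Nr4a2, a nuclear receptor of dopamine neurons, had the same 3 highest libraries as Th, with 13.6 and 16.5 CPM with romidepsin, 18.1, 18.4 and 19.1 CPM with saline, and 16.6, 16.6 and 29.6 CPM in wild type, and a log2 fold change of -0.18 ± 0.20 in saline against wild type. Slc6a3, the dopamine transporter, was not tested. It had 1 and 0 reads with romidepsin, 3, 2 and 5 reads with saline, and 0, 1 and 7 reads in wild type. By CPM its 3 highest libraries were those of Th, at these few reads. En1 and Foxa2, transcription factors of midbrain dopamine neurons, had 0 reads in all 8 libraries. That allows up to 0.033 CPM (3 reads over the 8 libraries together). Septal and basal forebrain markers were high elsewhere: they summed to 28.5 and 29.1 CPM with romidepsin, 49.8, 38.5 and 34.1 CPM with saline, and 25.9, 29.0 and 53.3 CPM in wild type, highest in wild type 3 and saline 1. Zic4 and Zic1, zinc-finger factors of the septum, had log2 fold changes of 0.54 ± 0.37 and 0.24 ± 0.22 in saline against wild type. Hypothalamic markers summed to under 6 CPM in every library, with 2 of 13 tested, the peptide genes Kiss1 (0.50 ± 0.55) and Pomc (0.15 ± 0.38).

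Markers of tissue around the cortex also differed between libraries. The 15 meningeal genes summed to 625 and 483 CPM with romidepsin, 974, 960 and 435 CPM with saline, and 411, 368 and 649 CPM in wild type. They were high in saline 1 and saline 2, so they do not follow the 9 genes in saline 1 or saline 3. In saline against wild type all 15 were higher (median log2 fold change 0.68), and 0 passed by edgeR while 9 had an unadjusted p under 0.05; Islr, an immunoglobulin-repeat protein, had 0.59 ± 0.16 and Mgp, matrix Gla protein, 1.09 ± 0.28 (SE). The 4 endothelial genes were all lower there, with a median of -0.59; Flt1, a VEGF receptor, and Pecam1, a junction adhesion protein, had -0.64 ± 0.13 and -0.60 ± 0.16. The 10 choroid plexus markers summed to 5.91 and 6.27 CPM with romidepsin, 7.40, 11 and 7.95 CPM with saline, and 6.23, 6.92 and 6.97 CPM in wild type; Aqp1, a water channel, had a log2 fold change of 1.45 ± 0.69 and Kcnj13, a potassium channel, 0.85 ± 0.43 in saline against wild type. Aqp1 had 0.197 and 0.206 CPM with romidepsin, 0.327, 0.942 and 1.41 CPM with saline, and 0.0842, 0.301 and 0.47 CPM in wild type, from 1 to 11 reads per library, with the same 3 highest libraries as Eomes. The part of these tissues in the levels of the 9 genes was not tested.

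**Figure D5:**
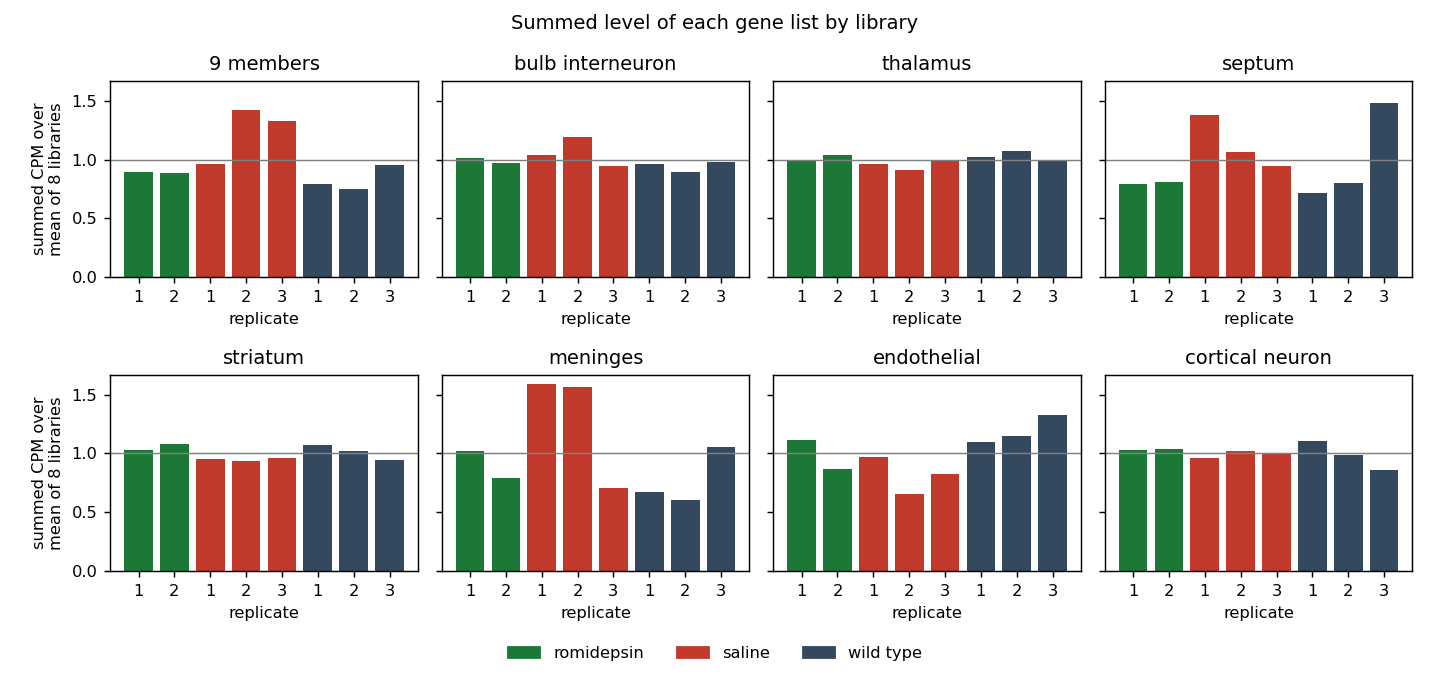
Summed CPM of 8 gene lists in each library, divided by the mean of the 8 libraries (axis from 0; line at 1); bars are single libraries, numbered by replicate. The 9 genes are high in saline 2 and saline 3, the septal list in saline 1 and wild type 3, and the meningeal list in saline 1 and saline 2. The thalamic, striatal and cortical neuron lists stay near 1. Each sum is weighted to its most abundant genes, such as Adarb1 in the thalamic list and Meis2 in the bulb interneuron list.

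Partners and paralogues of the 9 genes were counted too: of 34 tested, 20 were higher and 14 lower in saline against wild type, and 19 higher and 15 lower in romidepsin against saline, with medians of 0.08 and 0.04 and 0 passed. Trhr, the receptor for the Trh product, had 4.43 and 4.22 CPM with romidepsin, 6.15, 9.32 and 5.25 CPM with saline, and 3.96, 4.21 and 4.70 CPM in wild type. Saline lay above both other groups, with saline 2 highest, as for Trh. Calb1, calbindin and a paralogue of Calb2, had 110 to 146 CPM with saline and 104 to 117 CPM in wild type, with no high value in saline 3. Slc17a7, the cortical VGLUT1 and paralogue of Slc17a6, had 1660 CPM in both romidepsin libraries, 1510 to 1620 CPM with saline and 1360 to 1790 CPM in wild type.

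Cortical identity genes gave smaller differences. Bcl11b, a factor of deep-layer projection neurons, had a log2 fold change of -0.30 ± 0.09 and Rasgrf2, an upper-layer gene, 0.18 ± 0.11 in saline against wild type (SE). The synaptic vesicle calcium sensor Syt1 had 0.11 ± 0.11 and the neuronal splicing factor Rbfox3 -0.06 ± 0.07. The glial genes with the smallest p were Gfap (0.11 ± 0.27) and Slc1a3 (0.03 ± 0.13) of astrocytes, Mag (-0.20 ± 0.28) and Mbp (-0.11 ± 0.28) of oligodendrocytes, and Cx3cr1 (0.08 ± 0.11) and P2ry12 (0.07 ± 0.13) of microglia. None passed by edgeR in any comparison.

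Of all tested genes, those whose log2 CPM followed the mean of the 9 genes most closely over the 8 libraries were Irf1, an interferon regulatory factor (Pearson r 0.963), and Adcy8, an adenylyl cyclase (0.959). After them came 2410015M20Rik (0.945), Fbxo4 (0.942), Ei24 (0.937), Vps36 (0.936), Mctp1 (0.935), Nudt9 (0.935), Rnf180 (0.931) and 1700052K11Rik (0.928). None of these is on a regional list used here. Adcy8 had 24.1 and 24.5 CPM with romidepsin, 22.8, 32.3 and 30.4 CPM with saline, and 23.0, 22.8 and 28.5 CPM in wild type, with saline 2, saline 3 and wild type 3 highest. Nearest to Eomes were Vps36 (0.963), Frmd7 (0.959), Mctp1 (0.946), Doc2g (0.94) and Nudt9 (0.939). Frmd7 had 1.18 and 1.34 CPM with romidepsin, 1.77, 4.50 and 4.61 CPM with saline, and 1.85, 2.11 and 3.52 CPM in wild type. Nearest to Slc17a6 were Naca (0.955), Ccdc47 (0.948), Pcna (0.946), Dcun1d3 (0.94) and Jkamp (0.936); the first of these had 140 and 145 CPM with romidepsin, 150, 162 and 164 CPM with saline, and 140, 141 and 141 CPM in wild type. These genes were picked out of 14809 for likeness over 8 libraries, so the r values carry no test.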

How the data were processed

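Poly(A) RNA-seq was measured in 8 libraries. The authors deposited raw read counts per gene, 1 table per library; per the submitters' processing notes the tools were bcl2fastq 2.17.1.14, TopHat2 2.1.1 and HTSeq 0.6.1 with mm10/GRCm38. The sources used here give neither the annotation nor the strand setting. Groups came from the labels. The 9 genes and all lists were chosen with earlier results of these data known. Named genes were the 9, the 2 of each list with the smallest p in saline against wild type, and those most alike in pattern. Tbx21, Ebf3, Lhx1, Lhx5, Sp8, Scgn, Meis2, Etv1, Nr4a2, Slc6a3, Slc5a7, Ngfr, En1, Foxa2 and Slc17a7 were named after values were seen. Counts of 24420 genes were filtered with filterByExpr (9611 removed), scaled by TMM and fitted with a robust edgeR 4.0.16 quasi-likelihood model by group over all 8 libraries in R 4.3.3, passing at a Benjamini-Hochberg adjusted p under 0.05; log2 CPM used a prior count of 2. The fit was tested on simulated data. Alternatives were DESeq2 1.42.0, limma-voom 3.58.1, other scalings, no filter, the 2 groups alone, a replicate block and leaving out each library. Gene positions and exon lengths are from GENCODE M21. Depth is given with the results; intervals of fold changes cover the spread between these libraries, and those of read ratios counting error only.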

Additional observations from a re-analysis of the deposited data

How the results depend on the processing

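Over 15 alternatives (14 for Eomes in romidepsin against wild type), no member changed sign in saline against wild type or in romidepsin against saline; in romidepsin against wild type, Calb2 kept its sign in 12, Th in 13 and Slc17a6 in 13. Leaving out 1 library in turn gave 0 to 1 members passed in saline against wild type and 0 to 1 in romidepsin against saline, with Calb2 passing in saline against wild type without wild type replicate 3, where 54 genes passed over the whole table, and Eomes in both comparisons without saline replicate 1, where 9 and 3 genes passed in saline against wild type and romidepsin against saline. These passes, and the stable signs in the 2 comparisons with saline, follow the choice of genes high in saline libraries and support nothing. The number of members sharing 1 library as their highest was 5 with all libraries. It was 5 to 9 when 1 was left out, 9 without saline replicate 2 or without saline replicate 3. These counts follow from saline 2 and saline 3 being the 2 highest libraries for all 9 genes, so they are no separate check. Genes passed over the whole table were 1, 0 and 1 in saline against wild type, romidepsin against saline and romidepsin against wild type, against 29, 2 and 4 by DESeq2, 12, 0 and 2 with no filter, 1, 0 and 0 with library totals, and 2, 0 and 1 with the 2 groups alone; leaving out 1 library gave 1 to 54, 0 to 3 and 0 to 3. The cause was not tested.

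With the replicate number as a block, 0 members passed in each comparison, and 4, 0 and 0 genes passed over the whole table; Eomes in romidepsin against wild type had -1.66 in place of -2.34. The labels do not say that the numbers pair the libraries. Deviations of same-numbered libraries correlated at -0.18, 0.02 and -0.04 for saline with wild type. They correlated at 0.1 and 0.06 for romidepsin with saline, and at -0.03 and 0.08 for romidepsin with wild type. Libraries with different numbers had -0.16 to 0.24, so these values do not settle whether the numbers pair them. Low depth limits Eomes, with 1 to 38 reads per library.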
